A study of Homo sapiens with 4 samples.

Results

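The genes of the bone morphogenetic protein (BMP) and ID response described here are 10: ID1, ID2, ID3, ID4, SMAD6, SMAD7, BAMBI, BMP2, BMP4 and TMEM100. They were chosen by name. Every probe set whose single gene symbol in the platform annotation is one of these names was taken, which gave 19 probe sets of 54613, and 10 genes of 19775. A probe set is a group of short oligonucleotides on the array that read one transcript. The arrays came from LN-229 cells, a long-used line grown from a human glioblastoma, here with WIF1 under the control of doxycycline. WIF1 is secreted and captures WNT ligands outside the cell. In 2 cultures the cells had doxycycline for 48 h to express WIF1, and 2 control cultures of the same line had none. The vector and whether the line is a single clone are not given in the sources used here. No group received doxycycline alone, so the drug and the protein cannot be told apart. The values are log2 intensities, 1 array per culture, and differences are those of induced over control arrays on the log2 scale (n = 2 per group).

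BMP ligands bind receptor kinases that phosphorylate SMAD1 and SMAD5, which enter the nucleus with SMAD4 and switch on target genes. The ID genes are among the most direct of these targets. Their proteins have a helix-loop-helix but no DNA-binding region, so they hold E proteins and other bHLH factors off DNA and restrain differentiation. SMAD6, SMAD7 and BAMBI are also induced by the pathway and dampen it, and ligand genes such as BMP2 and BMP4 feed it. In neural and glioma cells this pathway is known for its link to astrocytic differentiation and stem-like states.

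Array medians were 6.15 and 6.15 in the induced arrays and 6.16 and 6.19 in the controls. Correlations over all probe sets were 0.997 between the induced arrays, 0.998 between the controls, and 0.996 to 0.998 across groups. The single probe set of WIF1 was close to the floor, at 2.93 and 3.03 in the induced arrays and 2.98 and 2.90 in the controls, so it does not check the labels. Of 11 markers of glioma and the astrocyte lineage 9 reached 6.16, the median over probe sets, among them vimentin, nestin, S100B and SOX2. The astrocyte filament gene GFAP was below that median in every array, at 5.76 and 5.51 after induction and 5.44 and 5.92 in the controls, and so was AQP4. The signal near the 3' end minus that near the 5' end, a sign of RNA quality, was 0.03 and 0.11 for ACTB in the induced arrays, against -0.04 and 0.02 in the controls. For GAPDH it was -0.04 and -0.05 in the induced arrays and -0.07 and -0.07 in the controls. Its part in the values below was not tested. The labels call the replicates biological and do not say what separates them, so p-values reach no further than these cultures. Each SE from limma also draws on the spread of other probe sets of similar intensity. Of the 6.27 degrees of freedom, 4.27 come from those other probe sets.

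The comparison asks what the induction of WIF1 does to these genes. TMEM100 and ID4 had the most negative differences of the 10, at -0.50 and -0.27, and BAMBI and BMP4 stood at -0.13 and -0.12. ID2 and BMP2 had small positive ones at 0.07 and 0.08, and ID1, ID3, SMAD6 and SMAD7 lay within 0.05 of zero on their brightest probe sets. None of the 19 probe sets passed limma at an adjusted p under 0.05, with adjusted p values from 0.413 to 0.994. Over all 54613 probe sets the share called was 0% as well. At an unadjusted p under 0.05, 6 member probe sets were lower, against 5.27% of all probe sets, and 1 was higher, against 4.75%. Of those 6, 4 read the single gene ID4 and are not independent. The total of 7 was 4 without the second control array, where 3.91% of all probe sets were at such a p, and also 4 without the second induced array, where 4.8% were. Taking the brightest probe set of each gene, 3 of 10 were lower, against 4.73% of all genes, and 0 were higher, against 6.48%. The members were picked with earlier results of these arrays known, TMEM100 and BAMBI among them, so this count is a description.

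**Figure D1:**
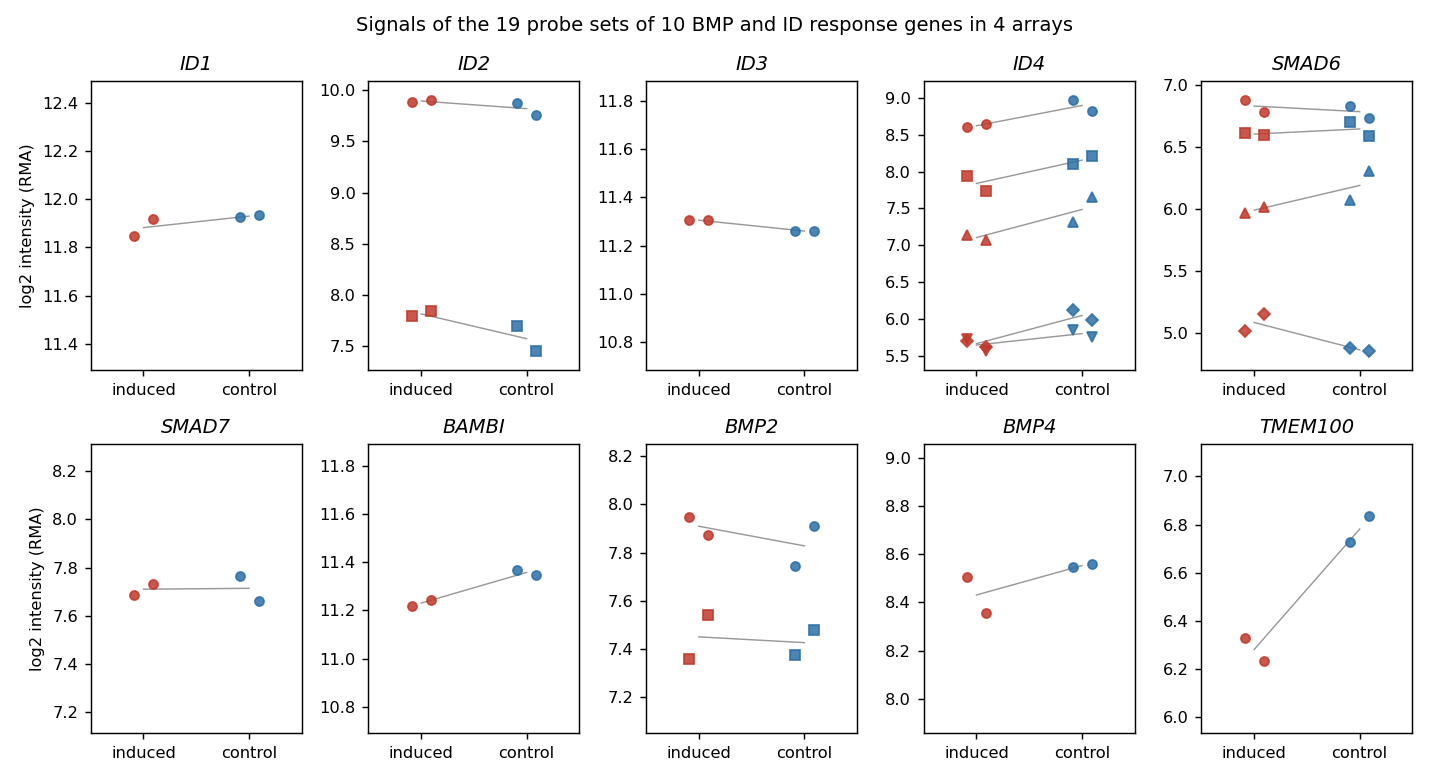
Log2 intensity (vertical axis) of each of the 19 member probe sets in the 2 induced arrays (red) and the 2 control arrays (blue), 1 panel per gene. Marker shapes separate probe sets of a gene, lines join group means, and the vertical axes cover different ranges and do not start at 0. Both induced arrays lie below both controls in 10 probe sets, where 23.5% of all probe sets do. Among these are TMEM100, BAMBI and all 5 of ID4, which read 1 gene. In 4 member probe sets both lie above, where 17.9% of all do.

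In 10 of the 19 probe sets both induced arrays lay below both controls, where 23.5% of all probe sets did, and in 4 both lay above, where 17.9% did. The other 5 overlapped. All 5 probe sets of ID4, which read 1 gene, are among the 10. Of the 14 probe sets without ID4, both induced arrays lay below both controls in 5 and above in 4. The median difference of those 14 was 0.01. The median difference of the 10 genes was -0.03, against -0.0030 for all genes. The plot of member differences with their intervals shows these differences side by side.

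**Figure D2:**
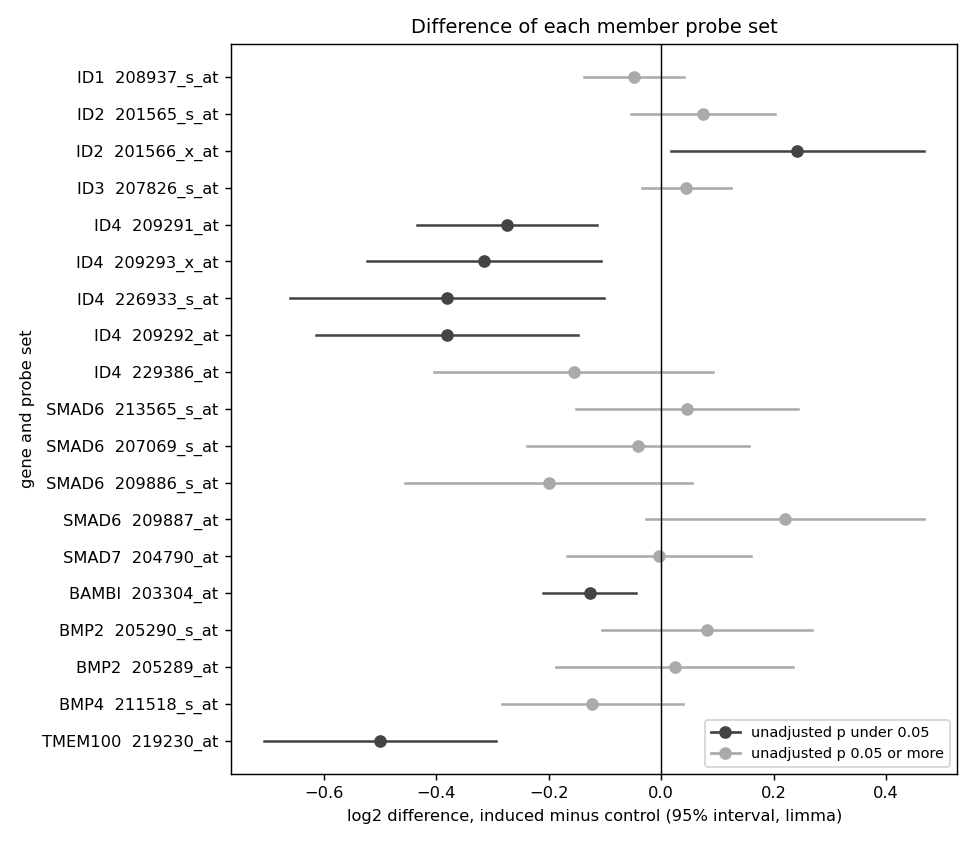
Log2 difference, induced minus control (horizontal axis), of the 19 member probe sets with 95% intervals from limma, with dark points where the unadjusted p was under 0.05. TMEM100 is at -0.50 and the ID4 probe sets run from -0.38 to -0.16. Intervals span zero for the ID4 probe set at -0.16, the brighter of ID2, and ID1, ID3, SMAD7 and BMP4. They also span zero for both BMP2 probe sets and for every SMAD6 probe set.

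ID4, the family member most tied to neural progenitors and glioma cells, had 5 probe sets that all pointed the same way. Its brightest, 209291_at, was at 8.60 and 8.64 in the induced arrays, against 8.97 and 8.82 in the controls. The groups did not overlap, and the gap to the nearer control was larger than the gap between controls. The difference was -0.27 (SE 0.066, unadjusted p = 0.00548, adjusted p = 0.472 by limma), which is 1.21-fold lower after induction. Probe set 209293_x_at read 7.94 and 7.74 after induction and 8.09 and 8.21 in the controls, a difference of -0.31 (SE 0.086). Probe set 226933_s_at read 7.14 and 7.07 against 7.32 and 7.65 in the controls, a difference of -0.38 (SE 0.12). The 2 others were below the median of all probe sets. There 209292_at stood at 5.71 and 5.63 after induction and 6.12 and 5.98 in the controls, a difference of -0.38 (SE 0.096). The last, 229386_at, was at 5.74 and 5.56 after induction and 5.85 and 5.76 in the controls, a difference of -0.16 (SE 0.10, limma adjusted p = 0.622). In all 5 both induced arrays lay below both controls, and in bulk cultures fewer cells with a transcript and less of it per cell cannot be told apart. With each array left out in turn the brightest ran from -0.35 to -0.20, 226933_s_at from -0.54 to -0.22 and 229386_at from -0.24 to -0.07. The smallest sizes of the last 2 came without the second control for 226933_s_at and without the second induced array for 229386_at.

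ID2, which also binds the retinoblastoma protein, pointed up on both probe sets. The brighter, 201565_s_at, read 9.88 and 9.91 in the induced arrays and 9.88 and 9.76 in the controls. Its lower induced array was only just above the higher control, and the difference of 0.07 (SE 0.053, limma adjusted p = 0.647) had a 95% interval from -0.05 to 0.20. The other, 201566_x_at, read 7.79 and 7.84 after induction and 7.70 and 7.45 in the controls, a difference of 0.24 (SE 0.093, unadjusted p = 0.0388). Without the second control the difference was 0.12. The unadjusted limma p of 201566_x_at was 0.0658 with the replicate block and 0.0657 with eBayes without trend. It stayed under 0.05 with robust eBayes, both low-signal filters, centring and cyclic loess. A further probe set, shared by ID2 and ID2B and so not counted, read 8.01 and 8.28 after induction and 8.09 and 7.79 in the controls, where the groups overlapped.

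ID1 and ID3, the members that respond most widely to BMP, had bright and narrow signals. ID1 was at 11.85 and 11.92 in the induced arrays and 11.92 and 11.94 in the controls, a difference of -0.05 (SE 0.037, adjusted p = 0.671). The second induced array lay close to both controls. ID3 was at 11.31 and 11.30 after induction and 11.26 and 11.26 in the controls, a difference of 0.05 (SE 0.033, adjusted p = 0.654). The 95% intervals ran from -0.14 to 0.04 for ID1 and from -0.03 to 0.12 for ID3, so differences as large as that of ID4 lay outside both. Whether ID4 differs from its relatives was not tested.

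The stretches upstream of the start sites of ID4 and ID2 are shown because the values of these relatives point in opposite directions. They are 250 bases long, from RefSeq on build GRCh38.p14, and 8 of the 10 genes had such a stretch, while TMEM100 and BMP2 had none. Each was searched on both strands for GGCGCC and GTCTAGAC, letters bound by SMAD proteins, for TGACGTCA, the cyclic AMP response element, and for CANNTG, the E-box bound by bHLH factors. These motifs read the same on both strands, and no matches overlapped in the stretches printed. Capitals mark matches.
ID4 promoter, chr6:19837120-19837369, plus strand: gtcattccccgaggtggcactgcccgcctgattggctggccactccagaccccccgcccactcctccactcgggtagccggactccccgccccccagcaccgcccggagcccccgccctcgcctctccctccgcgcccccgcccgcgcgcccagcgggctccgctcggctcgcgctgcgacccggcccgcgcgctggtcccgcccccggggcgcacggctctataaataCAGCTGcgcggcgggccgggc
ID2 promoter, chr2:8681806-8682055, plus strand: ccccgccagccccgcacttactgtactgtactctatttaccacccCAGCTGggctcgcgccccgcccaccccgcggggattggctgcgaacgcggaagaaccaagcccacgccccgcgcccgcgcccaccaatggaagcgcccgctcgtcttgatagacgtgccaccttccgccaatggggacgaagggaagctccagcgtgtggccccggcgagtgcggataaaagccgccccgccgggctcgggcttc
ID4 and ID2 each hold 1 E-box and none of the other motifs, and the E-box begins 21 bases before the start of ID4 and 205 bases before that of ID2. An E-box was present in 61.8% of the 35116 such stretches in the same RefSeq table. ID1 and ID3 hold none of the 4 motifs in their stretches.

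SMAD6, the inhibitory SMAD that acts mainly on BMP receptors, had 4 probe sets that disagreed. The brightest, 213565_s_at, was at 6.88 and 6.78 in the induced arrays and 6.84 and 6.74 in the controls, a difference of 0.05 (SE 0.082) with overlapping groups. The next, 207069_s_at, read 6.61 and 6.60 after induction and 6.71 and 6.59 in the controls, a difference of -0.04. Below the median of all probe sets, 209886_s_at was at 5.96 and 6.02 after induction and 6.08 and 6.30 in the controls (-0.20, SE 0.11). There 209887_at was at 5.02 and 5.15 after induction and 4.87 and 4.85 in the controls (0.22, SE 0.10). The 2 dim probe sets thus had no overlap between groups in opposite directions, and none of the 4 reached an unadjusted p of 0.05. The SMAD6 stretch is shown because it holds the full palindrome GTCTAGAC, with capitals as above.
SMAD6 promoter, chr15:66701986-66702235, plus strand: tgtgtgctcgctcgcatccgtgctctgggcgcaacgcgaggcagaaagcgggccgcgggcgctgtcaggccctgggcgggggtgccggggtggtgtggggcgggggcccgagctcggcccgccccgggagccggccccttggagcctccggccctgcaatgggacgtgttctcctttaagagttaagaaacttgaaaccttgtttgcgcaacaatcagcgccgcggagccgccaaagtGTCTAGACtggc
This palindrome begins 12 bases before the start of SMAD6 and was present in 0.182% of all such stretches. Of the 8 members with a stretch it was found in 1.

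SMAD7, the inhibitory SMAD that also blocks TGF-beta receptors, was at 7.69 and 7.73 in the induced arrays and 7.77 and 7.66 in the controls. The induced values lay between the controls. The difference was -0.0037 (SE 0.068, adjusted p = 0.994), its 95% interval ran from -0.17 to 0.16, and its sign turned after centring arrays on their medians (0.021) and after cyclic loess (0.017).

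BAMBI, a membrane protein that resembles a type I receptor but lacks the kinase, is both a BMP and TGF-beta feedback gene and a reported target of WNT signalling through beta-catenin. It was at 11.22 and 11.24 in the induced arrays, against 11.37 and 11.35 in the controls. The gap between groups was several times the gap within either group. The difference was -0.13 (SE 0.034, unadjusted p = 0.00900, adjusted p = 0.472 by limma), which is 1.09-fold lower, and it ran from -0.14 to -0.11 with each array left out in turn. Its unadjusted p was 0.0989 with eBayes without trend, which gave an SE of 0.062, and 0.0544 without the first induced array. The BAMBI stretch is shown because it holds the SMAD motif GGCGCC more than once.
BAMBI promoter, chr10:28677271-28677520, plus strand: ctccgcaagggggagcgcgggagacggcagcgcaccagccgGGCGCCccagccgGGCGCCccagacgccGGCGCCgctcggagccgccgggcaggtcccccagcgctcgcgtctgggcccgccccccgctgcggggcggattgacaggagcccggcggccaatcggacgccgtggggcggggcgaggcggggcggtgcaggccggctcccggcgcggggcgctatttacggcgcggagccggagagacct
GGCGCC stands 3 times in this stretch, beginning 209, 196 and 181 bases before the start. At least 1 such match was present in 16.4% of all stretches, and BMP4 was the other member with a match, with 1 in the first of its 3 annotated stretches. TGACGTCA was in 0 of the members' stretches and in 1.65% of all.

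BMP2 and BMP4, related ligands that use the same receptors, both had signals above the median of all probe sets. BMP4 was at 8.50 and 8.36 in the induced arrays and 8.55 and 8.56 in the controls, a difference of -0.12 (SE 0.066, adjusted p = 0.564). Most of it came from the second induced array, and without that array the difference was -0.05. The brighter BMP2 probe set, 205290_s_at, read 7.95 and 7.87 after induction and 7.75 and 7.91 in the controls, a difference of 0.08 (SE 0.077). The other, 205289_at, read 7.36 and 7.54 after induction and 7.37 and 7.48 in the controls, a difference of 0.02 (SE 0.087). Groups overlapped on both BMP2 probe sets, and the 95% interval of the brighter ran from -0.11 to 0.27.

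TMEM100, a small transmembrane protein that is induced through the receptor ALK1 in endothelial cells, had the most negative difference of the members. Its single probe set was at 6.33 and 6.24 in the induced arrays, against 6.73 and 6.83 in the controls. The induced mean of 6.28 was close to the median of all probe sets, and the groups were separated by more than the gap within either. The difference was -0.50 (SE 0.085, unadjusted p = 0.000934, adjusted p = 0.413 by limma), which is 1.41-fold lower, and it ran from -0.55 to -0.45 with each array left out. Of 8 endothelial markers 3 reached the median over probe sets. The mean log2 level of the 8 was 5.36 and 5.44 in the induced arrays and 5.37 and 5.42 in the controls. Of the 8, 1 was higher and 0 were lower at an unadjusted p under 0.05, against 6.48% and 4.73% of all genes. The higher one was the dim receptor gene TEK, at 5.73 and 5.93 after induction and 5.60 and 5.41 in the controls (0.32), and CLDN5 stood at -0.19, both named after their values were seen. KDR, a receptor of endothelial cells, was at 3.68 and 3.46 after induction and 3.58 and 3.72 in the controls. The 3 markers that reached the median were CLDN5, PECAM1 and VWF. All arrays are of the LN-229 line, so these markers are read here as genes of that line. Their relation to the TMEM100 value was not tested.

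**Figure D3:**
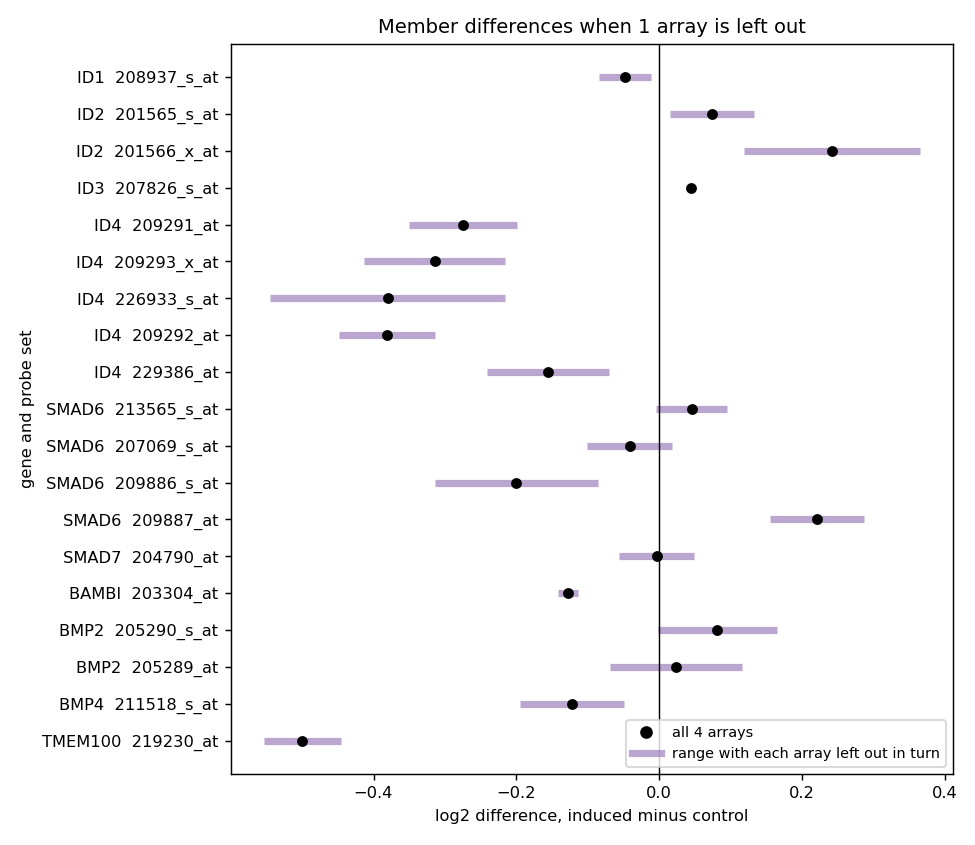
Log2 difference, induced minus control (horizontal axis), of each member probe set with all 4 arrays (points) and the range over the fits that leave out 1 array each (bars). Probe sets whose groups do not overlap, among them TMEM100, BAMBI, both of ID2 and all 5 of ID4, cannot cross zero in these fits. SMAD7, both BMP2 probe sets and 2 of the 4 SMAD6 probe sets, whose groups overlap, cross it.

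Other genes of the pathway were grouped in 7 lists, of which none had a gene that passed the adjusted threshold, as held for all genes. Among receptors and co-receptors 12 of 13 listed genes were measured, 2 were lower and 1 higher at an unadjusted p under 0.05, and the median was -0.03. These counts and those of the lists below stand against 4.73% lower and 6.48% higher over all genes, so 1 gene in such a list is near the background. TGFBR3 (betaglycan), a co-receptor for TGF-beta ligands, BMPs and inhibin, was at 8.15 and 8.17 after induction and 8.39 and 8.49 in the controls, a difference of -0.28 (SE 0.061, adjusted p = 0.472). Its other probe set gave -0.35. The type I receptor ACVR1 (ALK2) was at 9.91 and 9.96 after induction and 9.84 and 9.68 in the controls, a difference of 0.18 (SE 0.063), but 0.10 without the second control. The type II receptor BMPR2 stood at -0.08 (SE 0.053), and its 5 other probe sets disagreed, from -0.21 (unadjusted p = 0.0183) to 0.16. The third gene at an unadjusted p under 0.05 was the dim HJV (hemojuvelin), at -0.27, chosen after its value was seen.

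Of the 17 SMAD transducers and regulators 0 were lower and 1 was higher at an unadjusted p under 0.05, and the median was -0.01. The higher one was SMURF2, a ubiquitin ligase that marks SMADs and receptors for degradation, at 10.83 and 10.80 after induction and 10.69 and 10.69 in the controls, a difference of 0.13 (SE 0.036). Its 3 other probe sets gave 0.10 to 0.24. The transducers themselves did not reach that threshold on their brightest probe sets, with SMAD1 at -0.11 (SE 0.070), SMAD5 at -0.04 (SE 0.046) and SMAD4 at 0.06 (SE 0.052). Other probe sets of SMAD1 gave 0.11 and 0.17, the last with an unadjusted p of 0.0272 and no overlap between groups. Those of SMAD5 ran from -0.18 to 0.15, the highest with an unadjusted p of 0.0322 and no overlap, so neither gene had a settled direction. SMAD4 turned to -0.020 when its probe sets were averaged. The phosphatase CTDSP2, which removes phosphates from SMADs, was at -0.11 (SE 0.046), with 0.02 on its other probe set.

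Of 12 further BMP family ligands 11 were measured, with 1 lower and 0 higher at an unadjusted p under 0.05 and a median of -0.02. BMP8B and BMP8A, which are near-identical copies, stood at -0.09 (SE 0.048) and -0.15 (SE 0.098), and their signals may be mixed. The lower gene was GDF7, dim at 4.68 and 4.46 after induction and 4.87 and 4.91 in the controls, and named after its value was seen. Of 22 secreted antagonists and modulators 21 were measured, with 1 lower and 0 higher by the same threshold and a median of -0.08. Follistatin (FST), which traps activins and some BMPs, was the lower one, at 9.91 and 9.86 after induction and 10.11 and 10.20 in the controls, a difference of -0.27 (SE 0.050, unadjusted p = 0.00143, adjusted p = 0.451). Its other probe sets gave -0.25 and -0.03. NBL1 (DAN), an antagonist that binds BMPs, was at -0.11 (SE 0.058).

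Among bHLH factors, the partners that ID proteins hold or the factors downstream, 15 of 17 were measured, with 3 lower and 1 higher at an unadjusted p under 0.05 and a median of -0.07. OLIG1, an oligodendrocyte lineage factor, was at 6.63 and 6.68 after induction and 6.94 and 7.08 in the controls, a difference of -0.35 (SE 0.083, adjusted p = 0.472). The E protein TCF4 was at 10.09 and 10.04 after induction and 10.17 and 10.20 in the controls, a difference of -0.12 (SE 0.042), and its 7 other probe sets ran from -0.23 to -0.04. The E protein TCF3 stood at -0.04 (SE 0.059), and its 13 other probe sets ran from -0.19, with an unadjusted p of 0.0140 and no overlap, to 0.09. The E protein TCF12 stood at 0.09 (SE 0.043), with -0.04 to 0.10 on 3 others. TWIST2 at -0.14 and TAL1 at 0.24 were the other genes at an unadjusted p under 0.05, chosen after their values were seen. Beside OLIG1 and ID4, 4 of the 11 markers of glioma and the astrocyte lineage were lower at an unadjusted p under 0.05. They were, named after their values were seen, FABP7 at -0.19, SOX2 at -0.15, S100B at -0.12 and the dim AQP4 at -0.25. On the other side of zero were 3 of the 11, CD44 at 0.07, ALDH1L1 at 0.05 and SLC1A3 at 0.01. Groups overlapped for 6 of the 11, among them GFAP, nestin and OLIG2. The mean log2 level of that list was 9.34 and 9.34 in the induced arrays and 9.39 and 9.44 in the controls, and its part in the values of ID4 and OLIG1 was not tested.

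Of 23 other genes known as targets of BMP SMADs, 2 were lower and 4 higher at an unadjusted p under 0.05, and the median was -0.01. KLF10, a zinc finger repressor first known as a TGF-beta inducible early gene, was at 10.08 and 10.13 after induction and 9.80 and 9.69 in the controls, a difference of 0.36 (SE 0.053, unadjusted p = 0.000393, adjusted p = 0.391). The zinc finger factor GATA3 was at 8.66 and 8.64 after induction and 8.44 and 8.39 in the controls, a difference of 0.24 (SE 0.054), and its other probe sets gave 0.28 and 0.37. The rest, chosen after their values were seen, were RUNX2 at 0.25, the dim DLX3 at 0.28, DLX5 at -0.25 and the NOTCH and BMP target HEY1 at -0.15. Of 18 genes of the TGF-beta branch 17 were measured, with 1 lower and 2 higher by the same threshold and a median of -0.04. CCN2, a matricellular protein, was at 0.13 (SE 0.031), the matrix protein TGFBI at -0.11 (SE 0.031), and the ligand TGFB2, picked after its value was seen, at 0.23.

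**Figure D4:**
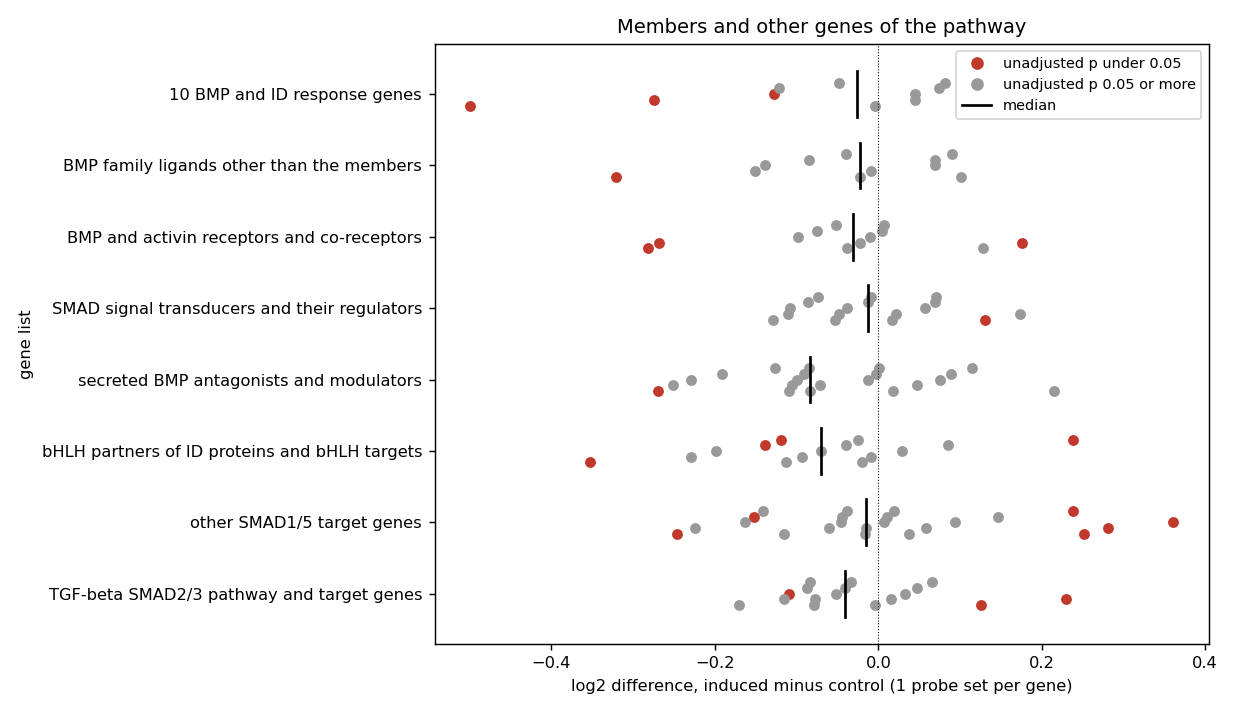
Log2 difference, induced minus control (horizontal axis), of each gene in the 10 members and in 7 lists of the pathway, 1 probe set per gene, with red points where the unadjusted p was under 0.05 and a bar at each list's median. Medians run from -0.08 to -0.01, and each of the lists has genes on both sides of zero.

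Genes whose 4 log2 values, each centred on its own mean, lay nearest to those of a member were sought among 12721 other genes that reached the median over probe sets, for the 3 members with the widest range over the arrays. Nearest to TMEM100 were ST8SIA5, at a Euclidean distance of 0.0907 log2 units, and ITGA9, at 0.110. For ID4 they were TMEM221, at 0.0200, and ZRANB3, at 0.0539, and for BMP4 they were TLE1, at 0.00688, and TMEM115, at 0.00714. With 4 arrays such likeness is a description only.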

How the data were processed

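Total RNA of 4 LN-229 cultures was read on 1 array each. Per the submitters' processing notes the authors made the deposited log2 intensities with RMA in the R package affy, and versions are not given in the sources used here. RMA equalises the distributions of arrays, so a change shared by most genes would not be seen, and small differences near the floor are compressed. Of 54675 probe sets 62 controls were left out. Gene names came from the platform annotation, where 41091 probe sets have 1 symbol, 1801 several and 11721 none.

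Groups were taken from sample titles. Induced and control arrays were compared with limma 3.58.1 in R 4.3.3 (lmFit, eBayes with trend, two-sided), with Benjamini-Hochberg adjustment over 54613 probe sets and 6.27 degrees of freedom. The probe set with the highest mean stands for a gene. With 2 arrays a group, no exact permutation test can go below 0.333, and the number of arrays limits precision.

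Members and lists were chosen with earlier results of these data known. Named were all members, 8 fixed pathway genes (7 measured), and from each of 7 lists the 2 genes of smallest p whose mean reached the median. Values exist here for 150 of 157 listed genes, and the rest are not analysed here. Whether samples with the same replicate number share a day or batch is not given in the sources used here. Alternatives were a replicate block, eBayes without trend or robust, 2 filters on low signals (a mean under the median, or under 4, left out), centring, cyclic loess, averaging per gene, and leaving out each array.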

Additional observations from a re-analysis of the deposited data

How the results depend on the processing

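The count of 0 probe sets called at an adjusted p under 0.05 became 2 with robust eBayes, 5 when each array was centred on its median, 11 after cyclic loess and 9 genes after averaging probe sets, all higher and with 0 of the members under each of these. Member probe sets at an unadjusted p under 0.05 numbered 7 of 19, which read 4 genes, and after averaging it was 4 of 10 genes (3 lower, 1 higher). With each array left out this count of probe sets ran from 4 to 7, where the share of all probe sets at that p ran from 3.91% without the second control to 11.4% without the first induced array. The called count stayed at 0, and the median of the members ran from -0.05 to -0.01 (main value -0.03). The replicate block gave 0 called probe sets and 6 member probe sets at an unadjusted p under 0.05, against 8.1% of all. Deviations of samples with the same number had a correlation of 0.056. With 2 arrays a group this cannot tell whether such samples share a day or batch. The main comparison does not use the numbers as pairs. Signs turned for SMAD7 (0.0209 after centring and 0.0167 after cyclic loess), and for SMAD1 (0.0565) and SMAD4 (-0.0201) after averaging. With an array left out the ranges were -0.0556 to 0.0481 for SMAD7, -0.00418 to 0.0951 for SMAD6, -0.00129 to 0.164 for BMP2 and -0.0997 to 0.0209 for TCF3. Centring shifts all differences alike, with the median of all genes at 0.0216 after it and -0.0030 before. Averaging takes in the other probe sets of SMAD1 and SMAD4. The causes of the other turns were not tested. The other 236 of 240 single-gene values over all arrays kept their direction, and none of the 240 passed the threshold. The replicate block, the eBayes settings and the low-signal filters leave each difference unchanged. Only centring, cyclic loess and averaging could therefore turn a sign there. With an array left out 114 of 120 kept their direction, and a gene whose groups do not overlap cannot turn in such a fit.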

Other observations

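The gap between replicates was the same size in the induced and the control arrays, within 1e-05 log2 units, for 2 of the 19 member probe sets, the brightest of SMAD6 and that of ID3, and for 1.08% of all probe sets. For ID3 this gap was 0.0013 log2 units in each group.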
